A study of Homo sapiens with 4 samples.

Results

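The 10 tubulin genes TUBA1A, TUBA1B, TUBA1C, TUBB, TUBB2A, TUBB2B, TUBB3, TUBB4B, TUBB6 and TUBG1 were followed among the 60708 genes of a table of nascent RNA counts. They were picked by symbol and the rule uses no measured value, but it was drawn up with earlier results of these data known. The assay was TT-seq, in which newly made RNA takes up 4-thiouridine (4-SU) and the labeled fragments are pulled down and sequenced, so that introns are read along with exons. HEK293, a line from human embryonic kidney, was used throughout. Their endogenous RPB1, the largest subunit of RNA polymerase II, carries a degron, so that auxin leads to its destruction.

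Both groups were the same degron cells with the same auxin treatment. The WT group was transfected with RPB1 that has a wild-type C-terminal domain (CTD) of 52 repeats. The T4A group was transfected with RPB1 in which the CTD of the same length carries a T4A mutation, threonine 4 of the repeat to alanine. Auxin was added 48 h after transfection and kept for another 48 h, and 4-SU was then given for 20 min. There were 2 libraries in each group. Nothing says whether they came from separate cultures, so the p-values measure the spread between these libraries, which may be technical. The comparison of T4A with WT asks how the mutation bears on nascent RNA. No group kept its own RPB1 without auxin, so the degron and the plasmid expression are shared by all 4 libraries.

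Microtubules are hollow polymers of alpha and beta tubulin pairs, and gamma tubulin sits in the ring complex from which they grow. Human cells have several alpha and several beta genes, called isotypes, whose proteins are much alike except at the acidic tail at the end of the chain. Alpha and beta tubulin mRNAs are also known for autoregulation: when free tubulin is in excess, their own mRNAs are degraded on the ribosome, through a factor that reads the first residues of the new chain. That control acts on mature mRNA, while TT-seq reads mostly RNA that has just been made.

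The 4 codons that matter for autoregulation of alpha and beta mRNAs are shown first, since they separate the alpha, beta and gamma members. The lines give the first 30 bases of the coding sequence of the main transcript of each gene (GENCODE v44), 5′ to 3′, with the first 4 codons in capitals. The 3 alpha genes share the same 30 bases.
TUBA1A, TUBA1B and TUBA1C: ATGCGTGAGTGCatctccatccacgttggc
TUBB: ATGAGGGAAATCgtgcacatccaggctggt
TUBB2A: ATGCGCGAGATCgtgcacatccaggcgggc
TUBB2B: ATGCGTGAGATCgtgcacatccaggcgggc
TUBB3: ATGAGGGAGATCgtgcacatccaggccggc
TUBB4B: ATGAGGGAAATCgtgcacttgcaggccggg
TUBB6: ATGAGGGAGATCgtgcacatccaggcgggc
TUBG1: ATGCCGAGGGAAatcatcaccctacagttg

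The last 30 coding bases, which encode the end of the tail, are shown for TUBB2A and TUBB2B to make plain how little sequence separates them. The pair differs in the last codons.
TUBB2A: gaggaggaggagggcgaggacgaggcttaa
TUBB2B: gaggaggaggagggcgaggacgaggcgtag

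Over the whole coding sequence TUBB2A and TUBB2B are 98.1% identical, TUBA1A and TUBA1B 97.2%, TUBA1B and TUBA1C 96.8%, and TUBA1A and TUBA1C 95.9%. The other beta pairs lie between 80.9% and 87.5%. A read that fits several genes equally well can be lost or misplaced, so the share of each main transcript made of 50-base stretches that occur in another tubulin transcript was computed. It was highest for TUBB2A (64.6%), TUBA1B (62.7%), TUBB2B (54.9%) and TUBA1A (47.3%). It was 30.0% for TUBG1, whose near copy is TUBG2, 26.7% for TUBA1C and 19.3% for TUBB. It was lowest for TUBB4B (10.4%), TUBB3 (9.23%) and TUBB6 (1.09%). Levels of the first group are therefore uncertain in a way that those of TUBB6 and TUBB4B are not. Tubulin pseudogenes are copies scattered over the genome. Of 51, 22 had any counts, and their sum was 821, 927, 893 and 899 in WT replicates 1 and 2 and T4A replicates 1 and 2. The 10 tubulin genes held 35695, 40279, 32494 and 33912 counts in the same libraries. Most pseudogene counts lay on TUBA5P (380, 485, 482 and 493) and TUBBP5 (331, 344, 278 and 335), more than on TUBB2B or TUBB3.

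The promoters of the 10 genes differ in whether their core holds an exact TATA motif. In the 60 bases before the transcript start (RefSeq, GRCh38.p14), TUBA1A, TUBA1C, TUBB2A and TUBB4B hold a TATA motif, searched as TATAAA or TATATA on both strands. That is 4 of 10, beside 4.62% of 35116 promoters of the same length. Near matches were not counted, such as TATAAG in the window of TUBB3 and CATAAA in that of TUBB2B. The 4 windows are printed with the motif in capitals, 5′ to 3′ on the strand of the gene.
TUBA1A, chr12:49189081-49189140, minus strand: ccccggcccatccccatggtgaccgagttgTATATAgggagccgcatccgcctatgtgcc
TUBA1C, chr12:49265022-49265081, plus strand: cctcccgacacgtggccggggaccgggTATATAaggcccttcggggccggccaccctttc
TUBB2A, chr6:3157545-3157604, minus strand: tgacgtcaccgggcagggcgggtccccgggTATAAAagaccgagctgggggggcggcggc
TUBB4B, chr9:137241227-137241286, plus strand: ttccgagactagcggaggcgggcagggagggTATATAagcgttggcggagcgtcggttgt

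In the 250 bases before the start, CCAAT on either strand was present in 8 of 10 tubulin promoters, the exceptions being TUBA1B and TUBB2A, beside 32.0% of all promoters. The letters GGGCGG, on either strand, were present in 8 of 10, the exceptions being TUBA1A and TUBB4B, beside 42.6% of all. A match of letters is a description of the sequence and not of a bound factor.

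The libraries held 39249066 and 45605027 counts in the WT group and 33853507 and 33188536 in the T4A group. The correlation of log2 levels was 0.991 for the WT pair and 0.979 for the T4A pair, and T4A replicate 1 stood apart. In that library the 1026 tested protein-coding genes shorter than 5000 bp had a median log2 level of -0.33 against the WT mean, where T4A replicate 2 had 0.04. The 6340 tested protein-coding genes of 50000 bp or more had -0.02 in T4A replicate 1 and -0.12 in T4A replicate 2. The 7 HEK293 markers summed to 214, 218, 152 and 224 normalized CPM, and the 8 matched markers of blood, endothelium, liver, muscle and fibroblasts to between 2.97 and 4.11, with none above 1.79. Of the HEK293 markers NEFM had 0 to 6 counts, and CKB had 35.2, 35.7, 5.81 and 32.0 normalized CPM. POLR2A, which encodes RPB1, had 9640 and 8720 normalized CPM in WT and 7490 and 8080 in T4A. Its reads come from the endogenous gene and the plasmids together and are no check of the T4A label.

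Levels below are normalized CPM, which is counts divided by the library total after TMM scaling and set to a common size, given in the order WT replicate 1, WT replicate 2, T4A replicate 1 and T4A replicate 2. Levels of different genes are compared per kb of gene span. Fold changes are T4A against WT, from edgeR's quasi-likelihood test over 23321 genes with Benjamini-Hochberg adjustment.

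All 10 tubulin genes had enough counts to be tested, and none passed an adjusted p of 0.05 in edgeR. Over all genes tested, 0.00429% passed, which is 1 gene. At an unadjusted p under 0.05 in edgeR, TUBA1A, TUBA1C and TUBB2A were higher in T4A, and no tubulin gene was lower. That is 3 of 10 beside 7.45% of all genes tested in the higher direction and 8.02% in the lower one, or 15.5% together. Both T4A libraries lay above both WT libraries for 4 of 10 (24.8% of all genes tested) and below them for 3 of 10 (24.7% of all). The log2 fold change was positive for 5 and negative for 5 of the 10, with a median of 0.06 beside -0.00076 over all genes tested. The signs of the 10 estimates were thus mixed, which is not read as a difference between the genes. Adjusted p in edgeR ran from 0.224 to 0.891.

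**Figure D1:**
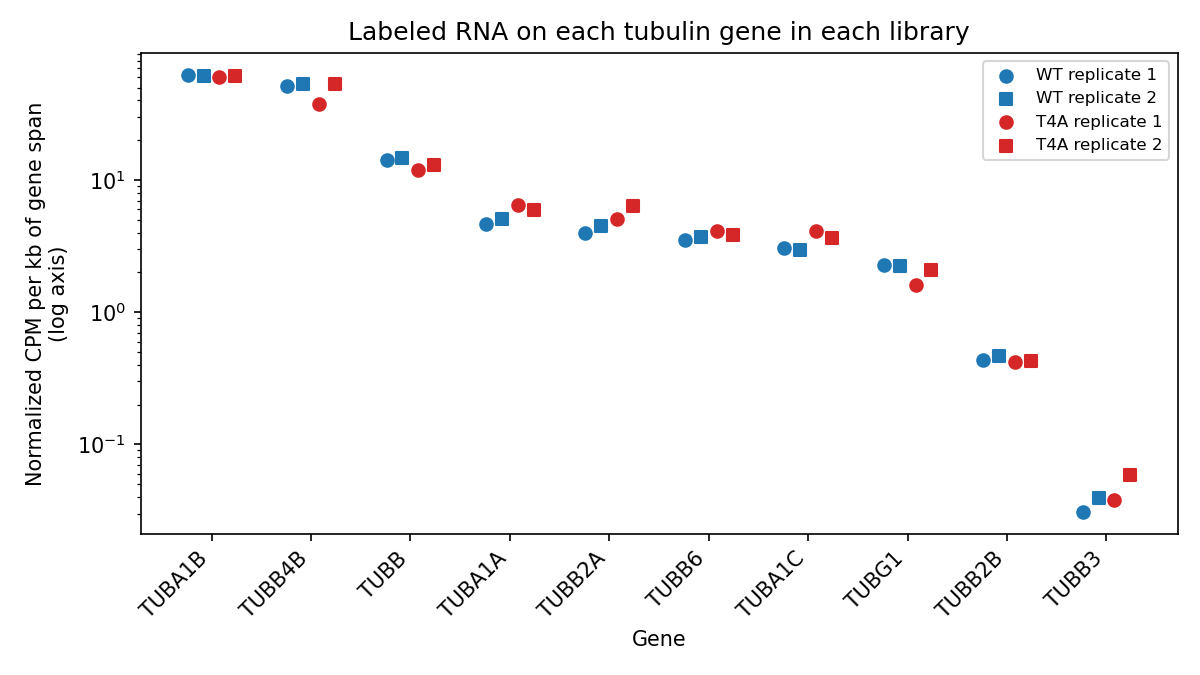
Normalized CPM per kb of gene span (log axis) of each tubulin gene in the 2 WT (blue) and 2 T4A (red) libraries, ordered by the WT mean. TUBA1B and TUBB4B sat highest, between 37.7 and 62.5 in every library, and TUBB3 lowest, at most 0.0583.

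By level per kb in WT, TUBA1B was first at 61.9 ± 0.862 (SD, n = 2) and TUBB4B second at 52.3 ± 0.914. TUBB followed at 14.4 ± 0.321. These are the isotypes most used by dividing cells outside the nervous system, and they ranked 60, 78 and 328 among the 23321 genes tested. The order depends on the span as well as on the counts. TUBB6, with a span of 36652 bp, had 132 normalized CPM in WT, above the 117 of TUBB with 8104 bp. A middle group held TUBA1A at 4.87 ± 0.288, TUBB2A at 4.21 ± 0.352, TUBB6 at 3.6 ± 0.117 and TUBA1C at 3.01 ± 0.0876. Neighbours within this middle group overlapped when the WT and T4A libraries were pooled, but not among the WT libraries alone. In T4A replicate 2, TUBB2A (6.32) lay above TUBA1A (5.94). With n = 2 in each group the order within this middle group is not taken as settled. TUBG1 stood at 2.26 ± 0.0289, TUBB2B at 0.448 ± 0.023 and TUBB3 at 0.035 ± 0.00586, each apart from its neighbours. Per kb of the 2669 bp in which TUBB3 reads could be counted, TUBB3 stood at 0.228 ± 0.0382, still below TUBB2B in every library. TUBB2B and TUBB3 are the isotypes best known from neurons. The order of the means was the same in T4A, from 60.6 for TUBA1B to 0.048 for TUBB3.

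The alpha genes came first in the comparison of T4A with WT. TUBA1B, the main alpha isotype of most cultured cells (ENSG00000123416, chr12:49127782-49131397, minus strand), had 8846, 9768, 7275 and 7669 counts, or 226, 222, 217 and 222 normalized CPM. The 4 libraries lay within a narrow range and the groups overlapped. The log2 fold change was -0.03 ± 0.09 (SE), with an adjusted p of 0.891 in edgeR, and its sign turned under other scalings, to 0.02 by library size and 0.05 by upper quartile factors. TUBA1B had the fold change nearest to 0 of the 10 genes. In bulk libraries such as these, fewer cells that express a gene and less RNA per cell cannot be told apart.

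TUBA1A is the alpha isotype known from developing neurons (ENSG00000167552, chr12:49184686-49189080, minus strand). It had 802, 982, 963 and 903 counts, or 20.5, 22.3, 28.7 and 26.1 normalized CPM. Both T4A libraries lay above both WT libraries, with means of 27.4 ± 1.82 against 21.4 ± 1.26 (SD, n = 2 each). This gave a log2 fold change of 0.36 ± 0.12 (SE), or 1.28-fold, with an adjusted p of 0.253 in edgeR. Without T4A replicate 1 it was 0.29 with an adjusted p of 0.369 in edgeR. Without T4A replicate 2 it was 0.41 with an adjusted p of 0.0436 in edgeR, a fit in which 13.8% of all genes tested passed.

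TUBA1C is a further alpha isotype of proliferating cells (ENSG00000167553, chr12:49188736-49274600, plus strand). It had the most counts of the 10 genes, 10315, 11148, 11783 and 10854, or 264, 253, 351 and 314 normalized CPM. The groups did not overlap, with means of 332 ± 26.2 in T4A against 258 ± 7.52 in WT. In edgeR the log2 fold change was 0.36 ± 0.10 (SE), or 1.29-fold, with an adjusted p of 0.224 in edgeR. It was the only one of the 10 genes past the threshold in DESeq2, at 0.35 with an adjusted p of 0.00362, where 892 of the 8808 genes given an adjusted p passed (10.1%). DESeq2 gave TUBB2B, TUBB3 and TUBG1 no adjusted p. In edgeR it was 0.29 with an adjusted p of 0.313 without T4A replicate 1, and 0.43 with an adjusted p of 0.00326 without T4A replicate 2, where 13.8% of all genes tested passed.

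The listed span of TUBA1C needs care. It is 85865 bp long, and the main transcript starts 76346 bp into it, which leaves 9519 bp for that transcript. The stretch before that start counts as TUBA1C in this table, and how the 10315 to 11783 counts divide between both stretches cannot be read from it. The level of TUBA1C per kb, and its place in the order, depend on this span.

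**Figure D2:**
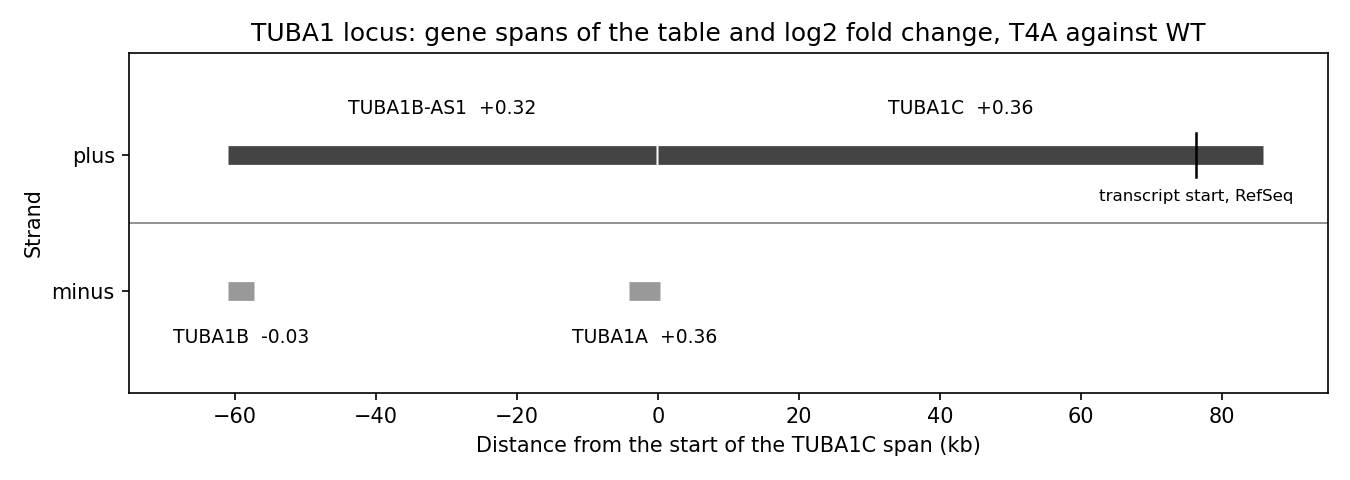
Spans of the TUBA1 genes and of TUBA1B-AS1 on the 2 strands, by distance in kb from the start of the TUBA1C span, each with its log2 fold change of T4A against WT. The plus-strand spans lie end to end with 0.32 and 0.36, and on the minus strand TUBA1A has 0.36 and TUBA1B -0.03, which turns to 0.02 by library size. The tick marks the main transcript start of TUBA1C in RefSeq.

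The alpha genes lie together on chromosome 12. TUBA1A and TUBA1C are arranged head to head and their spans share 345 bp on opposite strands. TUBA1B-AS1, an antisense RNA gene of 60703 bp on the plus strand, covers the whole of TUBA1B and reaches over part of TUBA1A, and it ends 251 bp before the TUBA1C span. It had 1769, 1939, 1892 and 1892 counts, or 45.2, 44.0, 56.4 and 54.7 normalized CPM. It was higher in both T4A libraries, with a log2 fold change of 0.32 ± 0.09 (SE) and an adjusted p of 0.23 in edgeR. The values of the counts show that strand was used: 5417 of 5417 genes that lie wholly inside a gene of their own strand with at least 1000 counts are listed at 0, against 35.6% of 7258 genes with such a host on the opposite strand only. Reads of TUBA1B and of its antisense gene were thus counted apart. None of the 4 genes at this locus passed an adjusted p of 0.05 in edgeR, and the difference of their fold changes from that of TUBA1B was not tested. The part of TUBA1B-AS1 in the TUBA1C values was not tested.

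Summed over the 3 alpha genes, the level was 510, 497, 596 and 562 normalized CPM. The T4A libraries were the higher ones, at 579 ± 24.5 against 503 ± 9.37 (SD, n = 2 each), a log2 difference of 0.20. Most of this difference lay on TUBA1C, with means of 332 in T4A against 258 in WT, whose counted span needs care. TUBA1A had 27.4 against 21.4, and TUBA1B 219 against 224. Per kb of span, TUBA1B made up 89.0%, 88.4%, 85.0% and 86.5% of the alpha sum. TUBA1A made up 6.64%, 7.31%, 9.25% and 8.38%, and TUBA1C 4.37%, 4.25%, 5.79% and 5.15%. With exonic length in place of the span, the mean shares were 46.3% for TUBA1B, 49.0% for TUBA1C and 4.72% for TUBA1A. Intron reads were counted, so division by exonic length raises genes with long introns. TUBA1C has 4454 exonic bp in its span of 85865 bp, and its 49.0% is not read as a leading level.

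**Figure D3:**
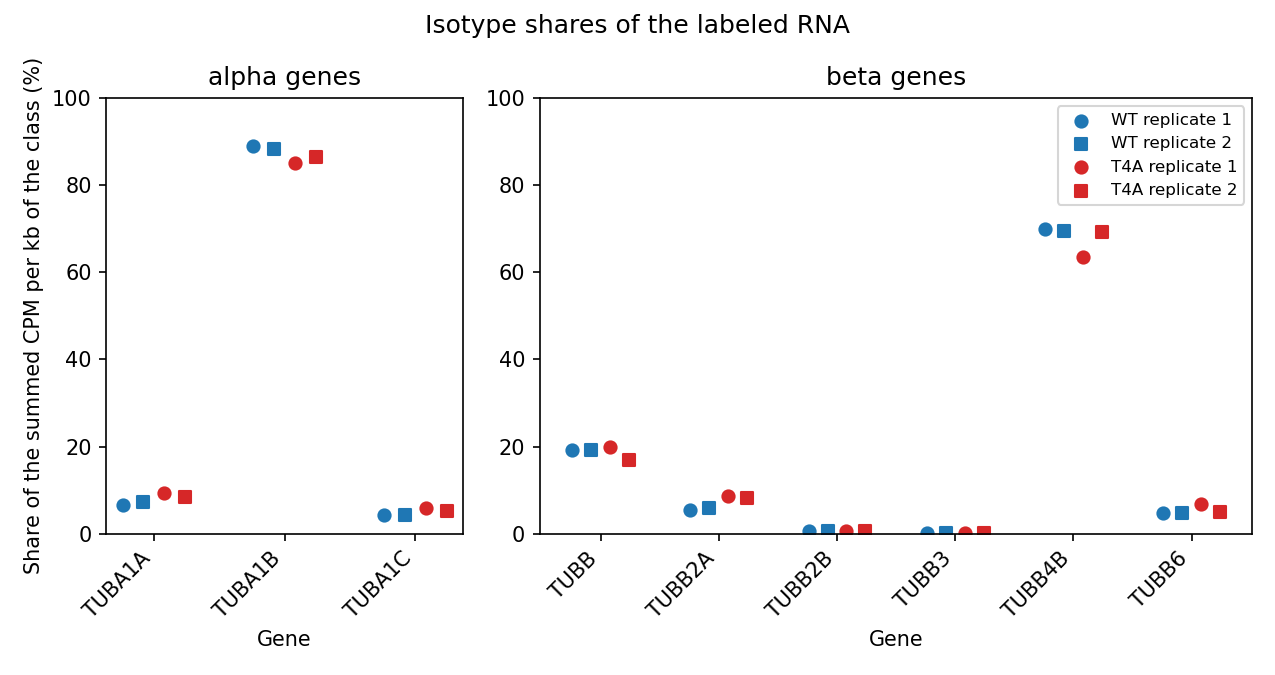
Share (%) of each alpha gene (left) and each beta gene (right) in the summed CPM per kb of span of its class, in the 2 WT (blue) and 2 T4A (red) libraries. TUBA1B held 85.0% to 89.0% of the alpha sum, and TUBB4B 63.6% to 70.0% of the beta sum.

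Among the beta genes, TUBB4B is widely expressed and also used in cilia (ENSG00000188229, chr9:137241287-137243707, plus strand, 2421 bp, the shortest of the 10). It had 4897, 5653, 3064 and 4467 counts, or 125, 128, 91.3 and 129 normalized CPM. T4A replicate 1 alone was low, and T4A replicate 2 was at the WT level. Its log2 fold change was -0.20 ± 0.15 (SE) with an adjusted p of 0.53 in edgeR. It turned to 0.04 without T4A replicate 1 and was -0.49 with an adjusted p of 0.00138 without T4A replicate 2 (13.8% of all genes passed), both in edgeR, so a single library decided the direction. In T4A replicate 1 the protein-coding genes under 5000 bp had a median log2 level of -0.33 against the WT mean. Of the other tubulin genes under 5000 bp, TUBA1A had 28.7 and TUBB2A 20.7 normalized CPM in that library, above both WT libraries, and TUBA1B had 217. With a trend over gene length removed from each library, the log2 fold change was -0.11.

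TUBB, the main beta isotype of many dividing cells (ENSG00000196230, chr6:30717435-30725538, plus strand), had 4500, 5230, 3231 and 3680 counts, or 115, 119, 96.3 and 106 normalized CPM. Both T4A libraries lay below both WT libraries, at 101 ± 7.2 against 117 ± 2.6. Its log2 fold change was -0.20 ± 0.09 (SE) with an adjusted p of 0.328 in edgeR, and over 13 other settings it stayed between -0.29 and -0.13. The lowest adjusted p among these was 0.0888, so no setting brought it past the threshold.

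TUBB2A and TUBB2B are neighbours on chromosome 6 with nearly the same coding sequence, and their values went different ways. TUBB2A (ENSG00000137267, chr6:3153497-3157544, minus strand) had 628, 796, 694 and 885 counts, or 16.0, 18.1, 20.7 and 25.6 normalized CPM. Both T4A libraries were above both WT libraries, with a log2 fold change of 0.44 ± 0.15 (SE), or 1.36-fold and an adjusted p of 0.252 in edgeR. Without T4A replicate 1, where 1.36% of all genes tested passed, it was 0.59 with an adjusted p of 0.0188, and without T4A replicate 2 it was 0.26 with an adjusted p of 0.288, both in edgeR. TUBB2A thus leaned most on T4A replicate 2, the higher of the T4A libraries.

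TUBB2B (ENSG00000137285, chr6:3223324-3231730, minus strand) had 142, 172, 118 and 124 counts, or 3.63, 3.9, 3.52 and 3.59 normalized CPM. Its T4A libraries lay just below the WT libraries. The log2 fold change was -0.08 ± 0.21 (SE), with an adjusted p of 0.865 in edgeR, and the standard error is several times the difference. The difference between TUBB2A and TUBB2B in their response was not tested, and 64.6% and 54.9% of their transcripts consist of stretches shared with other tubulin genes.

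TUBB6 (ENSG00000176014, chr18:12307669-12344320, plus strand) is the beta isotype known from muscle regeneration and bone-resorbing cells. It had 5044, 5947, 5041 and 4893 counts, or 129, 135, 150 and 142 normalized CPM. Both T4A libraries were higher, at 146 ± 6.12 against 132 ± 4.27, and the log2 fold change was 0.14 ± 0.09 (SE), with an adjusted p of 0.446 in edgeR. With the length trend removed it was 0.06. AFG3L2, a gene on the other strand that covers 42.0% of the TUBB6 span, had 104, 112, 108 and 97.4 normalized CPM, and its groups overlapped.

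TUBB3, a marker of neurons (ENSG00000258947, chr16:89921392-89938761, plus strand), had 21, 30, 22 and 35 counts, or 0.537, 0.681, 0.655 and 1.01 normalized CPM. The groups overlapped, and the log2 fold change of 0.45 ± 0.44 (SE), with an adjusted p of 0.64 in edgeR, was not distinguishable from 0 at this depth. Another gene of the same strand, ENSG00000198211, covers 84.6% of the TUBB3 span and had 2, 0, 0 and 1 counts. Reads over both were not counted, so the TUBB3 values rest on the 2669 bp outside that gene and understate its RNA.

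Summed over the 6 beta genes, the level was 389, 404, 363 and 407 normalized CPM. The groups overlapped, at 385 ± 31.7 in T4A against 397 ± 10.8 in WT, a log2 difference of -0.05. Per kb of span, TUBB4B made up 70.0%, 69.5%, 63.6% and 69.2% of the beta sum, and TUBB 19.2%, 19.2%, 20.0% and 17.0%. TUBB2A made up 5.37%, 5.85%, 8.62% and 8.19%, so both T4A shares were above both WT shares. TUBB6 made up 4.76%, 4.83%, 6.92% and 5.0%, and TUBB3 0.0418%, 0.0514%, 0.0637% and 0.0755%, also higher in both T4A libraries. TUBB2B made up at most 0.706%. Shares within a class are tied, so a lower share of TUBB4B raises the others. On the 2669 bp where TUBB3 could be counted, its mean share was 0.377%. With exonic length the mean shares were 45.2% for TUBB4B, 27.7% for TUBB6, 20.9% for TUBB and 5.41% for TUBB2A. Intron reads were counted here as well, and TUBB6 has 3941 exonic bp in a span of 36652 bp.

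TUBG1, which encodes the main gamma tubulin of the ring complex (ENSG00000131462, chr17:42609641-42615238, plus strand), had 500, 553, 303 and 402 counts, or 12.8, 12.5, 9.03 and 11.6 normalized CPM. Both T4A libraries were below both WT libraries, T4A replicate 1 by far the most. The log2 fold change was -0.29 ± 0.17 (SE) with an adjusted p of 0.424 in edgeR. It was -0.12 with an adjusted p of 0.823 without T4A replicate 1, and -0.50 with an adjusted p of 0.0453 without T4A replicate 2, where 13.8% of all genes tested passed, both in edgeR.

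**Figure D4:**
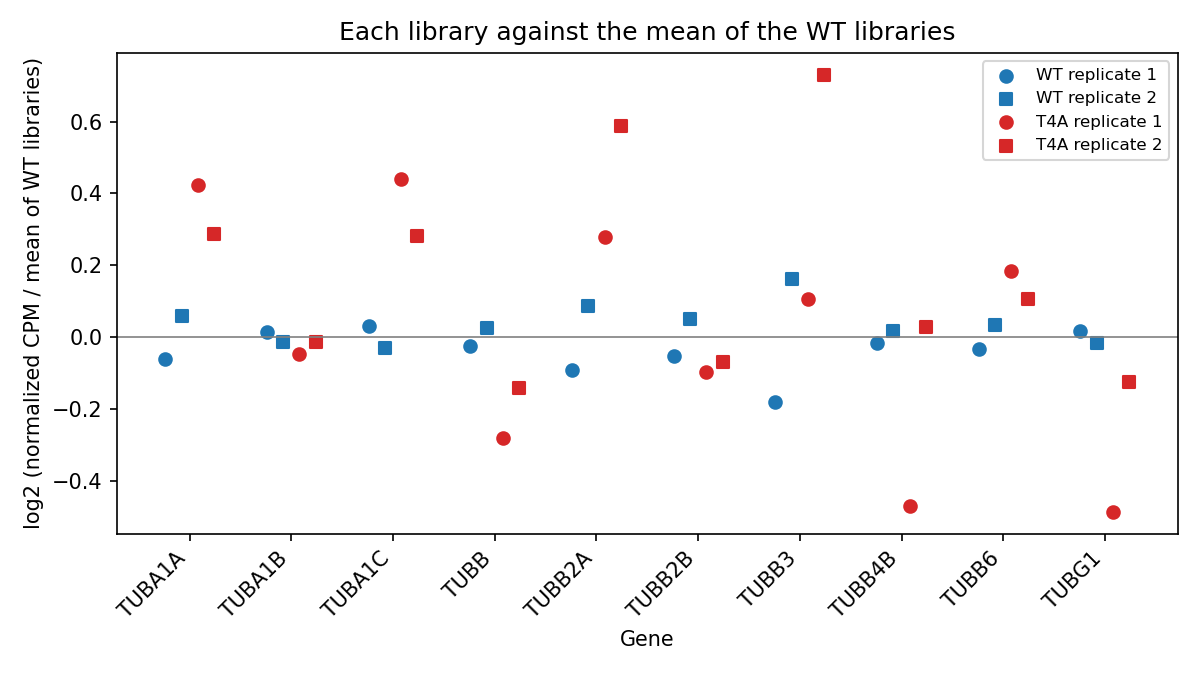
Log2 ratio of normalized CPM in each library to the mean of the WT libraries, for each tubulin gene; circles are replicate 1 and squares replicate 2, blue WT and red T4A. Both T4A points lie above both WT points for TUBA1A, TUBA1C, TUBB2A and TUBB6 (24.8% of all genes tested). They lie below for TUBB, TUBB2B and TUBG1 (24.7% of all), and T4A replicate 1 alone is low for TUBB4B.

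All 10 genes together had 912, 914, 968 and 981 normalized CPM, or 0.0909%, 0.0883%, 0.096% and 0.102% of the counts. Both T4A libraries were higher, at 974 ± 9.06 against 913 ± 1.27 (SD, n = 2 each), a log2 difference of 0.09 with a replicate SD of 0.0096. The replicate SD was larger for the parts, 0.0471 for the alpha sum, 0.0885 for the beta sum and 0.1831 for TUBG1. Between the T4A replicates the alpha sum fell from 596 to 562 and the beta sum rose from 363 to 407. The log2 difference of the total depends on the scaling, from 0.08 to 0.17. No p is given for a sum over chosen genes. TUBA1C had the largest difference between the group means (332 against 258), larger than that of the sum. The other tubulin genes together thus had no higher mean in T4A, and the counted span of TUBA1C needs care. The means of TUBB, TUBB4B, TUBA1B, TUBB2B and TUBG1 were lower in T4A.

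**Figure D5:**
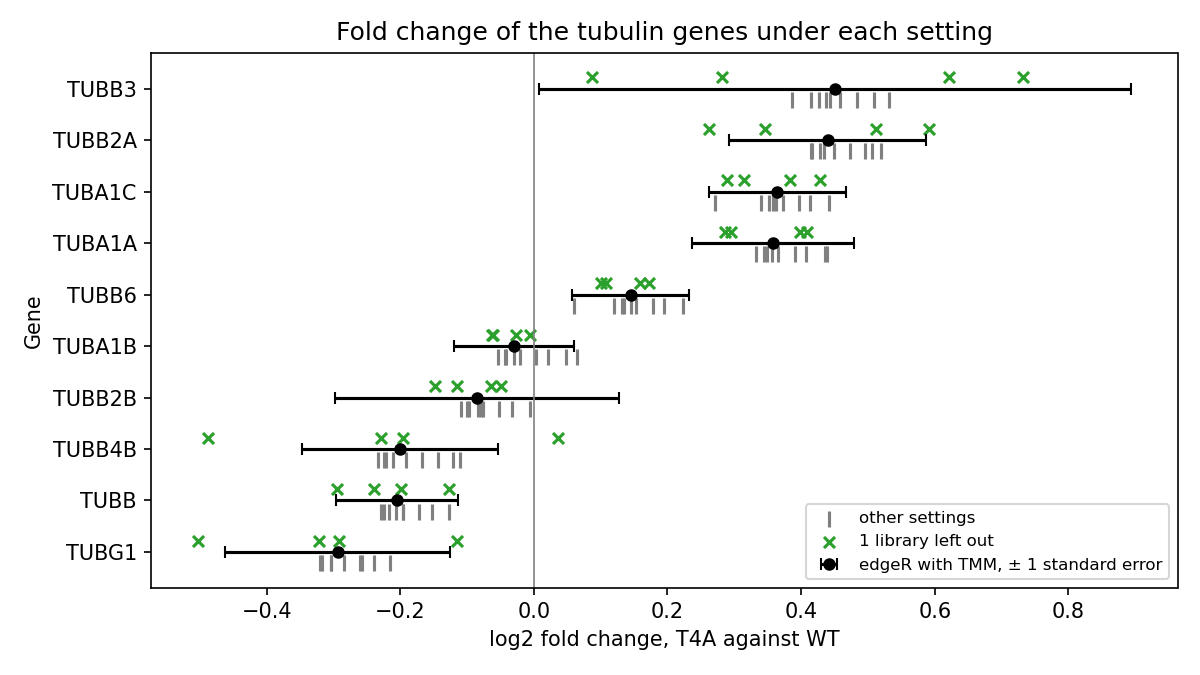
Log2 fold change of T4A against WT for each tubulin gene: black points with 1 standard error are edgeR with TMM, grey ticks other settings, green crosses fits with 1 library left out. TUBB2A, TUBA1C and TUBA1A stay above 0.26 in every fit, and the crosses of TUBB4B lie on both sides of 0.

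The genes most like the mean profile of the 10 over the 4 libraries, by Euclidean distance of centred log2 levels among 6977 well-counted protein-coding genes, were PEA15 (0.0317), SERPINH1 (0.0357), BLCAP (0.0439), VHL (0.0474) and FUCA2 (0.051). With 4 libraries such likeness is a description only.

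Other genes of the tubulin pathway were described by 6 lists, and none of their genes passed an adjusted p of 0.05 in edgeR. The shares over all genes tested, 7.45% with a higher and 8.02% with a lower level at an unadjusted p under 0.05 in edgeR, stand beside each count, and 10.1% of genes with an adjusted p in DESeq2 passed. At an unadjusted p under 0.05 in edgeR, 1 of 8 tested other tubulin genes was higher and 1 lower, with a median log2 fold change of -0.12, beside 7.45% and 8.02% of all genes tested. TUBA4A, an alpha isotype of muscle and brain, had 8.35, 8.71, 12.3 and 11.2 normalized CPM. Its log2 fold change was 0.46 ± 0.15 (SE) with an adjusted p of 0.251 in edgeR, and the log2 fold changes of the genes that follow are given the same way in parentheses. TUBD1, the delta tubulin of centrioles, had 29.4, 32.6, 23.2 and 23.6 (-0.40 ± 0.12, adjusted p = 0.226 in edgeR) and passed in DESeq2.

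Of 18 tested genes for tubulin folding, 0 were higher and 1 was lower at an unadjusted p under 0.05 in edgeR (7.45% and 8.02% of all genes), with a median of 0.04. The lower one was TBCA, a cofactor that holds beta tubulin, with 314, 355, 251 and 230 normalized CPM (-0.48 ± 0.11, adjusted p = 0.186 in edgeR), which passed in DESeq2. Its T4A libraries were well below both WT libraries. TBCD, another cofactor, had 184, 153, 119 and 157 (-0.29 ± 0.14, adjusted p = 0.369 in edgeR), and its groups overlapped. None of the 8 genes of the chaperonin, the barrel in which tubulin folds, was past an unadjusted 0.05 in edgeR.

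In edgeR, 2 of 14 genes of the gamma-tubulin ring complex and its anchors had an unadjusted p under 0.05 with a lower level (8.02% of all genes) and 0 with a higher one (7.45%), and the median was -0.19. TUBGCP4, a subunit of the ring, had 38.4, 39.7, 32.4 and 30.5 normalized CPM (-0.31 ± 0.10, adjusted p = 0.25 in edgeR). ACTB, the actin found inside the ring and far better known as a cytoskeletal gene, had 257, 274, 154 and 227 (-0.48 ± 0.16, adjusted p = 0.255 in edgeR), lowest in T4A replicate 1. AKAP9, a scaffold and the most counted of the list, had 236, 268, 244 and 229 (-0.09, adjusted p = 0.69 in edgeR). Both T4A libraries lay below both WT libraries for 5 of the 14 and above them for 0, beside 24.7% and 24.8% of all genes tested.

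Of 18 tubulin modifying enzymes, 1 was higher and 2 were lower at an unadjusted p under 0.05 in edgeR, beside 7.45% and 8.02% of all genes, and the median was 0.01. The share is near the 15.5% of all genes in either direction. TTLL12, of the tyrosine ligase-like family, had 42.1, 36.7, 18.1 and 32.3 normalized CPM (-0.64 ± 0.23, adjusted p = 0.267 in edgeR), and T4A replicate 1 was lowest. VASH2, which takes off the end tyrosine of alpha tubulin, had 18.5, 18.2, 25.7 and 21.6 (0.36 ± 0.13, adjusted p = 0.271 in edgeR). AGTPBP1, a deglutamylase, had 301, 328, 283 and 267 (-0.19 ± 0.10, adjusted p = 0.386 in edgeR).

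Among 8 genes of tubulin mRNA autoregulation, 2 had an unadjusted p under 0.05 in edgeR with a lower level (8.02% of all genes) and 0 with a higher one (7.45%), and the median was -0.09. SCAPER, which links the nascent chain reader to the deadenylase, had 240, 264, 201 and 184 normalized CPM (-0.39 ± 0.10, adjusted p = 0.208 in edgeR) and passed in DESeq2. Both T4A libraries lay below both WT libraries. CNOT3, a deadenylase subunit, had 41.1, 36.5, 25.1 and 35.0 (-0.37 ± 0.16, adjusted p = 0.32 in edgeR). CNOT2, another subunit, had 332, 375, 405 and 359 (0.11, adjusted p = 0.664 in edgeR).

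Among 27 tested genes for microtubule-associated proteins, 8 had an unadjusted p under 0.05 in edgeR, 2 with a higher (7.45% of all genes) and 6 with a lower level (8.02%), and the median was -0.05. MAP7, which recruits kinesin, had 118, 121, 93.1 and 88.2 normalized CPM (-0.40 ± 0.09, adjusted p = 0.177 in edgeR). MAP4, the main microtubule-associated protein outside neurons, had 252, 254, 199 and 185 (-0.40 ± 0.09, adjusted p = 0.188 in edgeR). In both genes the T4A libraries were close to each other and below both WT libraries. The span is 209 kb for MAP7 and 239 kb for MAP4. The 6340 tested protein-coding genes of 50000 bp or more had a median log2 fold change of -0.07. TBCA, SCAPER and AGTPBP1 lie in that length range too, as does MAP1B, which was higher. How far gene length bears on these values was not tested. CLASP1, which stabilizes growing ends, had 397, 416, 415 and 379 (-0.03, adjusted p = 0.897 in edgeR). DESeq2 called 4 of the list, MAP4 and MAP7 lower and MAP1B and STMN1 higher, beside 10.1% of all genes given an adjusted p.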

How the data were processed

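TT-seq was measured in 4 libraries, 2 WT and 2 T4A. The deposited values are raw counts for 60708 genes, made by the authors with featureCounts per the file headers. The submitters' processing notes name cutadapt 4.6, STAR 2.7.11b, Picard, deepTools 3.5.6, FastQC and GRCh38, and the counter's version is not given in the sources used here. The listed length equals the gene span for all 60708 genes, so intron reads were counted. Coordinates are GRCh38, since 99.979% of 19045 protein-coding genes overlapped their GRCh38 position. Names, types and exonic lengths came from GENCODE v44 on GRCh37 by gene identifier, which matched 58700 genes. Coding sequences came from the same transcripts, and promoters from RefSeq on GRCh38.p14, with all 10 members found.

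Counts were tested with edgeR 4.0.16 in R 4.3.3 (TMM, filterByExpr, quasi-likelihood F-test, Benjamini-Hochberg, adjusted p below 0.05, no covariate). Alternatives were DESeq2 1.42.0, other scalings and filters, a replicate block and leaving out each library. A trend over gene length was added as an alternative after seeing the data. In simulated data on 23321 genes for T4A against WT, 77% of genes changed by 2 on the log2 scale were called, 42% of those changed by 1 and 0.0606% of unchanged genes. The members and lists were chosen with earlier results of these data known. The genes named are all 10 tubulin genes, POLR2A, from each list the most counted tested gene and those with the 2 smallest unadjusted p, and the 5 most alike genes with a mean count of at least 1000. MAP1B and STMN1 were named after their values were seen, as were the neighbours TUBA1B-AS1 and AFG3L2 and the pseudogenes TUBA5P and TUBBP5. The coding ends of the alpha genes are not reported here.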

Additional observations from a re-analysis of the deposited data

How the results depend on the processing

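Over all genes, the count past an adjusted p of 0.05 was 1 in edgeR with TMM, 892 in DESeq2, 195 with scaling to mitochondrially encoded genes, 150 with no filter on low counts, 22 with the gene length trend removed (chosen after seeing the data), and 0 to 3466 with 1 library left out. Leaving out WT replicate 1 gave 3, WT replicate 2 gave 0, T4A replicate 1 gave 333 and T4A replicate 2 gave 3466, the lone T4A library being assumed to vary like the WT libraries. The cause was not tested. At an unadjusted p under 0.05 edgeR gave 3607. Of the 10 tubulin genes, 0 passed in edgeR with TMM, 1 in DESeq2 (TUBA1C), and 0 to 4 with 1 library left out: TUBB2A without T4A replicate 1, and TUBA1A, TUBA1C, TUBB4B and TUBG1 without T4A replicate 2.

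The replicate block gave 533 genes and 0 tubulin genes. Deviations of same-numbered libraries correlated at 0.00498, so the numbers were not taken to pair them.

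TUBA1B turned positive by library size (0.0215), with upper quartile factors (0.0483), among protein-coding genes only (0.0033) and with the length trend removed (0.0651). TUBB4B was 0.0356 without T4A replicate 1 and -0.4878 without T4A replicate 2. The summed log2 difference was 0.14 by library size, 0.0817 with DESeq2 size factors, 0.17 with upper quartile factors and 0.0768 with mitochondrial scaling. Shares with exonic length were 4.72% for TUBA1A, 46.3% for TUBA1B, 49.0% for TUBA1C, 20.9% for TUBB, 5.41% for TUBB2A, 0.0757% for TUBB3, 45.2% for TUBB4B and 27.7% for TUBB6. TUBB3 was 0.377% on the span free of other genes, and TUBB2A ran from 6.47% to 7.56% with 1 library left out. In the simulated data 42% of genes changed by 1 on the log2 scale were called, and smaller changes were not simulated. Every tubulin estimate in edgeR with TMM was smaller than 1. A tubulin gene that did not pass, well counted or not, is thus not shown to be unchanged. Members with few counts, TUBB3 above all, show least.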
